A study of Drosophila melanogaster with 6 samples.

Results

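Insect cuticle is built from chitin fibres and a large set of structural proteins, and the genes of these proteins were followed here in regenerating wing imaginal discs of *Drosophila melanogaster*. A gene was taken as a member when its FlyBase symbol begins with Cpr and a digit, Twdl, Lcp, Ccp84A or Edg. This rule uses no measured value and found 120 members among the 16455 genes of the deposited tables. Of them, 70 are Cpr, 25 Twdl, 15 Lcp, 7 Ccp84A and 3 Edg genes.

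Most Cpr, Lcp, Ccp84A and Edg proteins carry the Rebers-Riddiford region, a stretch that binds chitin, whereas the Tweedle (Twdl) proteins form a separate family of cuticle proteins, one of which alters body shape when mutated. Lcp genes were named for the larval cuticle, which the larval epidermis makes. Disc cells instead lay down pupal and later adult cuticle, after the pulses of the moulting hormone ecdysone, and the Edg genes were named for their dependence on ecdysone in discs.

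The RNA-seq libraries came from pooled wing discs of larvae in the third instar. Of the 6 libraries, 3 are labelled *CR40469-KO* together with the driver *salE/Pv-LHG:tub-Gal80TS* and its target *lexO-rpr*, and 3 are labelled with this driver and target alone (control). In both groups the pro-apoptotic gene *reaper* (*rpr*) was expressed for 16 h, in the central wing domain where the *sal* E/Pv enhancer drives the activator LHG, and its start was set by temperature through Gal80TS. The comparison asks what changes in regenerating discs when the lncRNA gene *CR40469* is deleted, and no library without *rpr* expression was analysed here.

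The lncRNA went against these labels. *CR40469* was listed at 535.93, 389.21 and 293.78 TPM (transcripts per 1000000, a level scaled by gene length) in the libraries labelled CR40469-KO, against 99.61, 46.44 and 82.52 TPM in those labelled control, with a log2 fold change of 2.43 (SE 0.31, limma adjusted p = 0.0280). Across the settings of the fit its limma adjusted p was 0.000845 to 0.216, so it was not called in all of them. Every library labelled CR40469-KO was above every library labelled control. The near-identical lncRNA *CR34335* was listed at 1938.29, 1928.63 and 1902.09 TPM in libraries labelled CR40469-KO, against 3521.64, 2442.97 and 3201.91 TPM in those labelled control. Reads that these copies share were divided between them during quantification, so neither value is certain. For the earlier regeneration data it used, the study inspected the reads at the *CR40469* locus by eye. It reports that the mismatches between the copies sufficed to place those reads. The stock's deletion was checked by PCR in the study. All directions given here are therefore between labels. *rpr* was at 144.06, 189.81 and 164.11 TPM in libraries labelled CR40469-KO, against 132.26, 122.67 and 143.52 TPM in libraries labelled control, and did not pass the test (limma adjusted p = 0.818). All 10 wing disc marker genes examined, among them *nub*, *vg* and *ap*, were at 1 TPM or more in every library. TPM keep no read depth, so no counting interval could be given. The libraries of a group are described as biological replicates in the study, while the labels name no separate cultures, and p-values measure the spread between these libraries. Discs were measured in bulk, so fewer cells of a type and less RNA per cell cannot be told apart.

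Most cuticle protein genes were off in these discs, and a few Cpr genes made up nearly all of the family's RNA. At the threshold of 1 TPM, 31 of the 120 members (25.8%) were on in at least 1 library, compared with 48.9% of all genes. In every library 16 members (13.3%) were on, compared with 45.2% of all genes. A further 49 members had a value above 0 without reaching 1 TPM in any library, and 40 (33.3%) were listed at 0 in all 6 libraries, compared with 24.1% of all genes. The number of members on per library was 24, 22 and 24 in libraries labelled CR40469-KO, and 23, 20 and 21 in libraries labelled control. These ranges overlap.

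The families differed in how many members were on. Among the Cpr genes, 20 of 70 were on, 13 of them in every library. Among the Tweedle genes, 3 of 25 were on (*TwdlE*, *TwdlT* and *Twdlbeta*), only *TwdlE* in every library, and 14 were listed at 0 throughout. Of the 15 Lcp genes, 6 were on in some libraries (*Lcp1*, *Lcp2*, *Lcp4*, *Lcp9*, *Lcp65Ab1* and *Lcp65Ag2*), none in every library, and none passed 5.32 TPM. No Ccp84A gene was on, with a highest value of 0.31 TPM. Of the 3 ecdysone-dependent Edg genes, *Edg78E* and *Edg91* were on in every library and *Edg84A* was listed at 0 in all of them.

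**Figure D1:**
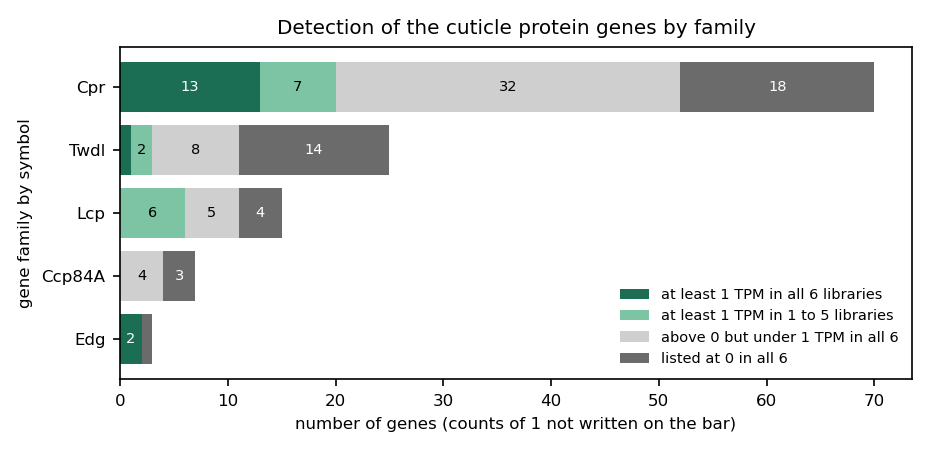
Number of cuticle protein genes (horizontal axis) in each family, split by detection: at least 1 TPM in all 6 libraries, in 1 to 5 libraries, above 0 but under 1 TPM in all, or listed at 0 in all. The Cpr family holds 13 of the 16 members on in every library, and no Ccp84A gene reached 1 TPM.

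The threshold fell within a continuous range of values. Just inside it were *Lcp9* with a highest value of 1.03 TPM, *Cpr11A* with 1.21 TPM and *Lcp2* with 1.35 TPM, and just outside were *Cpr72Eb* with 0.97 TPM, *Cpr67B* with 0.96 TPM and *Lcp65Ad* with 0.76 TPM. Members that are on in only some libraries are thus partly those that lie close to 1 TPM.

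Groups of neighbouring members held both genes that were on and genes that were off. With neighbours less than 50 kb apart joined, 17 groups held 92 members, and 28 members stood alone. Of those standing alone 13 were on, whereas the 5 groups of 5 or more members held 52 members with 7 on. The largest group (3L:6130386-6161589 on dm6), of 17 genes with the Lcp65A and Cpr65A symbols, had 2 on, *Lcp65Ag2* and *Lcp65Ab1*. The Tweedle group (3R:26619118-26641054) had none of its 12 genes on, and the sum over all 12 was at most 0.34 TPM in any library. The group of *Edg84A* and the 7 Ccp84A genes (3R:6684445-6704903) also had none of 8 on. In contrast, the Cpr49A group (2R:12376626-12415170) held 3 of the 4 most abundant members, *Cpr49Ac*, *Cpr49Ag* and *Cpr49Ah*, beside 5 genes that did not exceed 0.10 TPM. *Cpr65Ec* reached 65.98 TPM while both its neighbours were listed at 0 throughout, and *Cpr64Aa* reached 70.93 TPM while its 3 neighbours did not exceed 0.30 TPM.

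*Cpr49Ac*, a chitin-binding protein gene of the Cpr family (2R:12386666-12390057), was the most abundant member in every library. It had 271.09, 535.75 and 524.35 TPM in libraries labelled CR40469-KO, against 355.40, 471.03 and 451.75 TPM in libraries labelled control. The groups overlapped, and the library numbered 1 was the lowest of its label in both. *Cpr49Ag* had 90.01, 135.22 and 117.70 TPM in libraries labelled CR40469-KO, against 103.11, 97.75 and 117.83 TPM in those labelled control. *Cpr65Ec* had 33.69, 55.70 and 65.37 TPM in libraries labelled CR40469-KO, against 47.37, 59.93 and 65.98 TPM in those labelled control. Both genes had overlapping groups, and *Cpr65Ec* was lowest in the libraries numbered 1.

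Other Cpr genes of this abundance were highest in the libraries numbered 1. *Cpr49Ah* had 115.64, 42.00 and 48.12 TPM in libraries labelled CR40469-KO, against 115.33, 40.00 and 58.86 TPM in those labelled control. *Cpr51A* had 83.71, 29.93 and 41.13 TPM in libraries labelled CR40469-KO, against 54.80, 18.50 and 26.45 TPM in those labelled control. *Cpr64Aa*, which lies within the gene *CG43367* without sharing an exon with it, had 70.93, 12.72 and 16.14 TPM in libraries labelled CR40469-KO, against 57.66, 21.13 and 17.78 TPM in those labelled control. Between labels the values of all of them overlapped, and the spread within a label exceeded the difference between labels.

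*TwdlE* was the only abundant Tweedle gene. It had 37.50, 20.25 and 28.62 TPM in libraries labelled CR40469-KO, against 27.24, 22.98 and 35.77 TPM in those labelled control, and the groups overlapped. The library preparation is not stated to keep strand, and 968 of the 1346 bases of the *TwdlE* transcript overlap *lectin-28C* exons on the opposite strand. Reads within that stretch cannot be told apart from those of *lectin-28C*. *Cpr12A* and *Cpr66D* complete the 9 members at 10 TPM or more in every library and are described with the comparison of labels.

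The 9 most abundant members held between 92.5% and 94.3% of the summed TPM of all 120 members. That sum was 858.40, 993.96 and 1011.64 TPM in libraries labelled CR40469-KO (mean 955 ± 83.8, SD, n = 3), against 907.70, 886.65 and 932.66 TPM in libraries labelled control (mean 909 ± 23.0, SD, n = 3). The groups overlapped and the means differed by less than the SD of the libraries labelled CR40469-KO. With libraries scaled by their median ratio, the order of the means turned, at 918 TPM for libraries labelled CR40469-KO and 952 TPM for libraries labelled control. *Cpr49Ac* alone made up 31.6%, 53.9% and 51.8% of the sum in libraries labelled CR40469-KO, against 39.2%, 53.1% and 48.4% in those labelled control, the lowest share of each label being in library 1.

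Lower down were genes that stayed on without reaching 10 TPM in every library. *Edg91*, an ecdysone-dependent gene, had 9.85, 5.01 and 7.46 TPM in libraries labelled CR40469-KO, against 9.67, 6.56 and 6.44 TPM in those labelled control. *Edg78E* had 2.74, 3.98 and 3.09 TPM in libraries labelled CR40469-KO, against 2.91, 4.32 and 2.82 TPM in those labelled control. Neither separated the labels. *Cpr67Fa2* had 9.92, 7.06 and 6.79 TPM in libraries labelled CR40469-KO, against 6.82, 7.80 and 8.43 TPM in those labelled control. *Cpr35B* had 7.73, 7.99 and 6.88 TPM in libraries labelled CR40469-KO, against 5.53, 6.91 and 7.39 TPM in those labelled control. *Cpr78E* had 1.64, 10.73 and 10.37 TPM in libraries labelled CR40469-KO, against 3.40, 10.06 and 4.25 TPM in those labelled control. All groups overlapped, and *Cpr78E* was lowest in the libraries numbered 1. *Cpr72Ea* lay between 1.60 and 4.42 TPM over the 6 libraries, and *Cpr78Ca* and *Cpr31A* were on in some libraries only, at no more than 2.01 TPM.

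**Figure D2:**
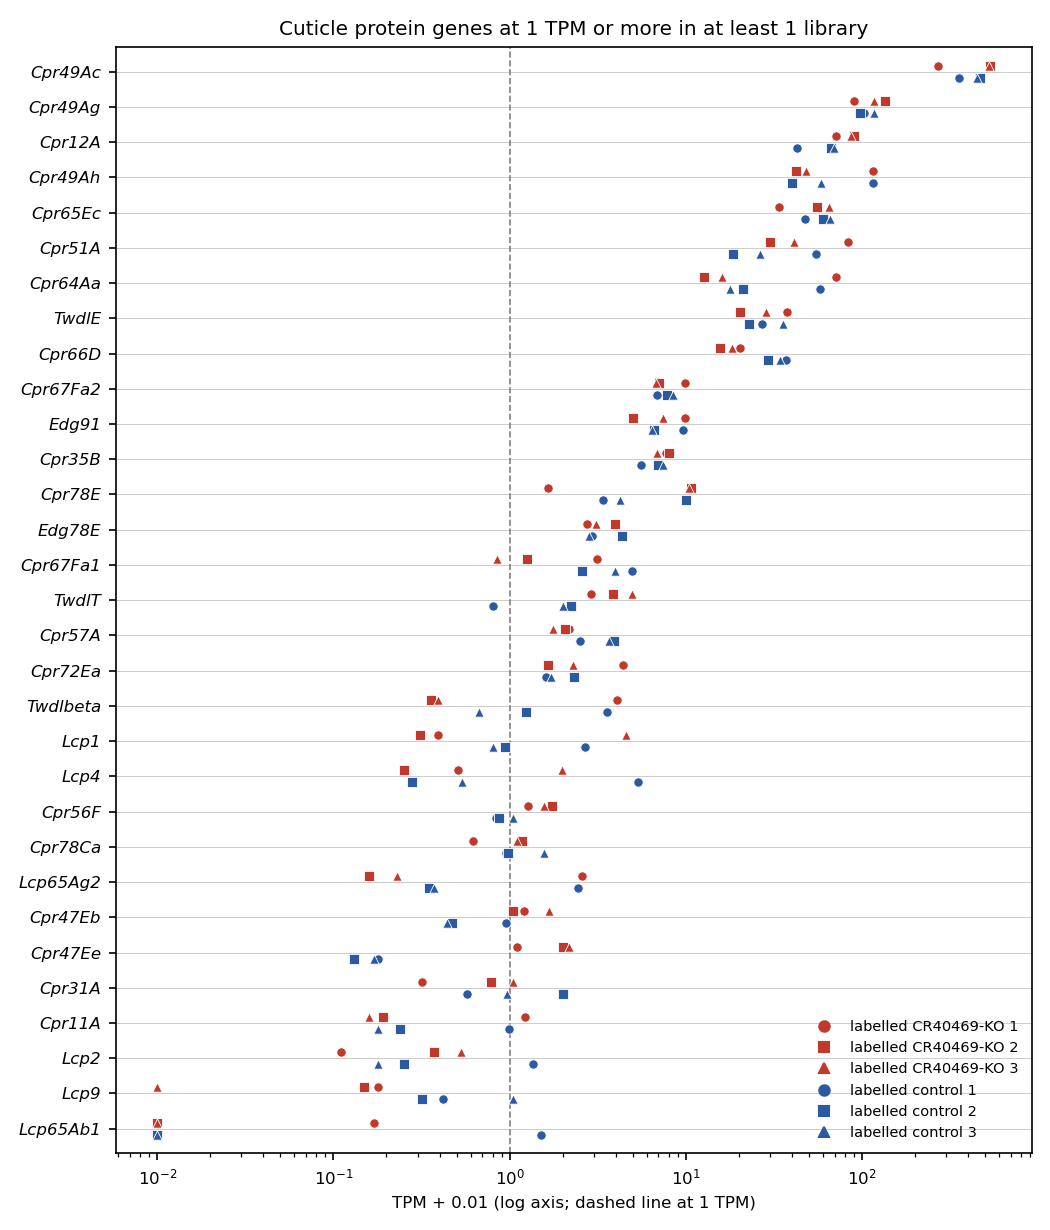
TPM + 0.01 on a log axis for each of the 31 cuticle protein genes on in at least 1 library, with libraries labelled CR40469-KO in red above those labelled control in blue and the replicate number given by the symbol's shape; the dashed line is at 1 TPM. *Cpr49Ac*, at 271.09 to 535.75 TPM, lies above the other genes, and circles (libraries numbered 1) stand apart from the other shapes for genes such as *Cpr64Aa*, *Twdlbeta* and *Lcp65Ag2*.

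Larval cuticle protein genes were low and uneven across libraries. *Lcp1* had 0.38, 0.30 and 4.55 TPM in libraries labelled CR40469-KO, against 2.67, 0.93 and 0.79 TPM in those labelled control. *Lcp4* had 0.50, 0.24 and 1.97 TPM in libraries labelled CR40469-KO, against 5.32, 0.27 and 0.53 TPM in those labelled control. The high libraries were CR40469-KO 3 and control 1 for both genes, which are neighbours in the group of *Lcp1* to *Lcp4* (2R:8430115-8438495). Summed over those 4 genes the values were 1.40, 0.98 and 7.20 TPM in libraries labelled CR40469-KO, against 9.67, 1.53 and 1.81 TPM in those labelled control. *Lcp65Ag2* followed another order, with 2.55, 0.15 and 0.22 TPM in libraries labelled CR40469-KO, against 2.45, 0.34 and 0.36 TPM in those labelled control, the libraries numbered 1 being high under both labels. *Lcp65Ab1* reached 1.49 TPM in control 1 and 0.16 TPM in CR40469-KO 1, and was listed at 0 in the other 4 libraries. Reads shared by *Lcp65Ag1* to *Lcp65Ag3*, by *Lcp65Ab1* and *Lcp65Ab2*, by *Lcp1* and *Lcp2*, or by *Cpr67Fa1* and *Cpr67Fa2* were divided by the authors' quantification, so values of single copies are uncertain.

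Genes of the pupal and adult cuticle outside the member families were also low. *Pcp*, which encodes a pupal cuticle protein, did not exceed 0.43 TPM, *Acp65Aa*, named for the adult cuticle, did not exceed 0.06 TPM, and *resilin*, the gene of an elastic cuticle protein, was listed at 0 throughout. By contrast *kkv*, the chitin synthase gene of epidermis and trachea, had 104.34, 57.67 and 60.96 TPM in libraries labelled CR40469-KO, against 49.04, 67.70 and 51.01 TPM in those labelled control, and *Chs2*, the gut chitin synthase gene, was listed at 0.

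Between the labels no member passed the test. Genes were called where the adjusted p of limma was under 0.05 and the fold change in either direction was over 1.7. Of the 8051 tested genes 18 (0.224%) met both, 0.149% higher and 0.0745% lower in libraries labelled CR40469-KO, and 0 of the 31 members that reached 1 TPM in a library did. At an unadjusted p under 0.05 were 9 of the 31 members (29.0%), compared with 4.82% of tested genes. Of these members 5 were higher in libraries labelled CR40469-KO, as were 3.03% of tested genes, and 4 were lower, as were 1.79%. The count of 9 fell to 4 without the library CR40469-KO 3, and to 5 without CR40469-KO 2 or without control 3. Groups did not overlap for 8 of the 31 members (25.8%), compared with 10.5% of tested genes. The libraries labelled CR40469-KO were above those labelled control for 5 (7.9% of tested genes) and below them for 3 (2.56%). *Cpr47Ee*, *Cpr47Eb* and *Lcp9* passed the filter only through the label in which they were high, so the counts are a description and not support. The median log2 fold change was -0.04 over the 31 members and 0.13 over all tested genes. With libraries scaled by their median ratio the median of all genes was 0.0014, and changes of that size are not separated from this shift.

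*Cpr47Ee* (2R:11265126-11266856) had the lowest p of the members. It had 1.09, 1.99 and 2.17 TPM in libraries labelled CR40469-KO, against 0.17, 0.12 and 0.16 TPM in libraries labelled control, with a log2 fold change of 1.23 (SE 0.18, limma adjusted p = 0.0536). Fold changes are on the log2(TPM + 1) scale, which understates those of low genes. *Cpr47Ee* was on only in libraries labelled CR40469-KO and passed the filter through them alone, also where 3 libraries were required, so its calls are a description. Across the alternatives its limma adjusted p was 0.00583 to 0.268. It was called with a pseudocount of 0.1 (adjusted p = 0.00729) and with the filter at 3 libraries (0.0486). It was also called with the replicate number as a block (0.0430) and without CR40469-KO 1 (0.00583). It was not called without the filter (0.185), with median-ratio scaling (0.0873), with a mean-variance trend (0.0913) or with any other single library left out (0.127 to 0.268). Its neighbour *Cpr47Eb* had 1.19, 1.04 and 1.67 TPM in libraries labelled CR40469-KO, against 0.95, 0.46 and 0.43 TPM in those labelled control, with a log2 fold change of 0.52 (SE 0.18, limma adjusted p = 0.786). Both separated the labels, *Cpr47Eb* not with median-ratio scaling, while *Cpr47Ec* and the other members of this group did not exceed 0.75 TPM.

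*Cpr66D* (3L:8640439-8643584) was the most abundant member whose groups did not overlap with lower values in libraries labelled CR40469-KO. It had 20.40, 15.61 and 18.21 TPM in libraries labelled CR40469-KO, against 37.17, 29.47 and 34.45 TPM in libraries labelled control, with a log2 fold change of -0.86 (SE 0.16, limma adjusted p = 0.111). *Cpr66D* and *Cpr47Ee* are both on the list of changed genes that the study drew from these libraries, so their direction is not independent evidence. *Cpr12A* (X:13543643-13544907) had 71.32, 90.18 and 86.85 TPM in libraries labelled CR40469-KO, against 42.88, 66.40 and 69.41 TPM in those labelled control, with a log2 fold change of 0.49 (SE 0.21, limma adjusted p = 0.818). Its groups were separated only by the gap between 71.32 and 69.41 TPM, and overlapped with median-ratio scaling.

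The other members with an unadjusted p under 0.05 were low. *TwdlT*, a Tweedle gene lying within *RYa-R*, had 2.87, 3.83 and 4.92 TPM in libraries labelled CR40469-KO, against 0.79, 2.21 and 2.01 TPM in those labelled control (log2 fold change 0.89, SE 0.26, limma adjusted p = 0.508). *Cpr56F* had 1.26, 1.73 and 1.56 TPM in libraries labelled CR40469-KO, against 0.83, 0.86 and 1.03 TPM in those labelled control (log2 fold change 0.40, SE 0.14, limma adjusted p = 0.799). Both were higher in every library labelled CR40469-KO than in any labelled control. *Cpr57A* had 2.15, 2.05 and 1.76 TPM in libraries labelled CR40469-KO, against 2.51, 3.92 and 3.64 TPM in those labelled control (log2 fold change -0.53, SE 0.17, limma adjusted p = 0.648). *Lcp9* had 0.17, 0.14 and 0 TPM in libraries labelled CR40469-KO, against 0.41, 0.31 and 1.03 TPM in those labelled control (log2 fold change -0.50, SE 0.19, limma adjusted p = 0.818). Both were lower in every library labelled CR40469-KO. However, *Cpr57A* shares 1488 exonic bases, as many as its longest transcript has, with the odorant-binding protein gene *Obp57d* on the same strand. Reads listed for *Cpr57A* may thus come from either gene. *Lcp9* overlaps the antisense RNA *asRNA:CR44067* by 9 bases. *Cpr67Fa1* had 3.14, 1.25 and 0.84 TPM in libraries labelled CR40469-KO, against 4.91, 2.55 and 3.97 TPM in those labelled control (log2 fold change -0.87, SE 0.32, limma adjusted p = 0.818), and its groups overlapped. Summed with its copy *Cpr67Fa2*, the values were 13.06, 8.31 and 7.63 TPM in libraries labelled CR40469-KO, against 11.73, 10.35 and 12.40 TPM in those labelled control. The other 22 members had log2 fold changes of -0.38 to 0.63 and limma adjusted p-values of 0.818 or more.

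**Figure D3:**
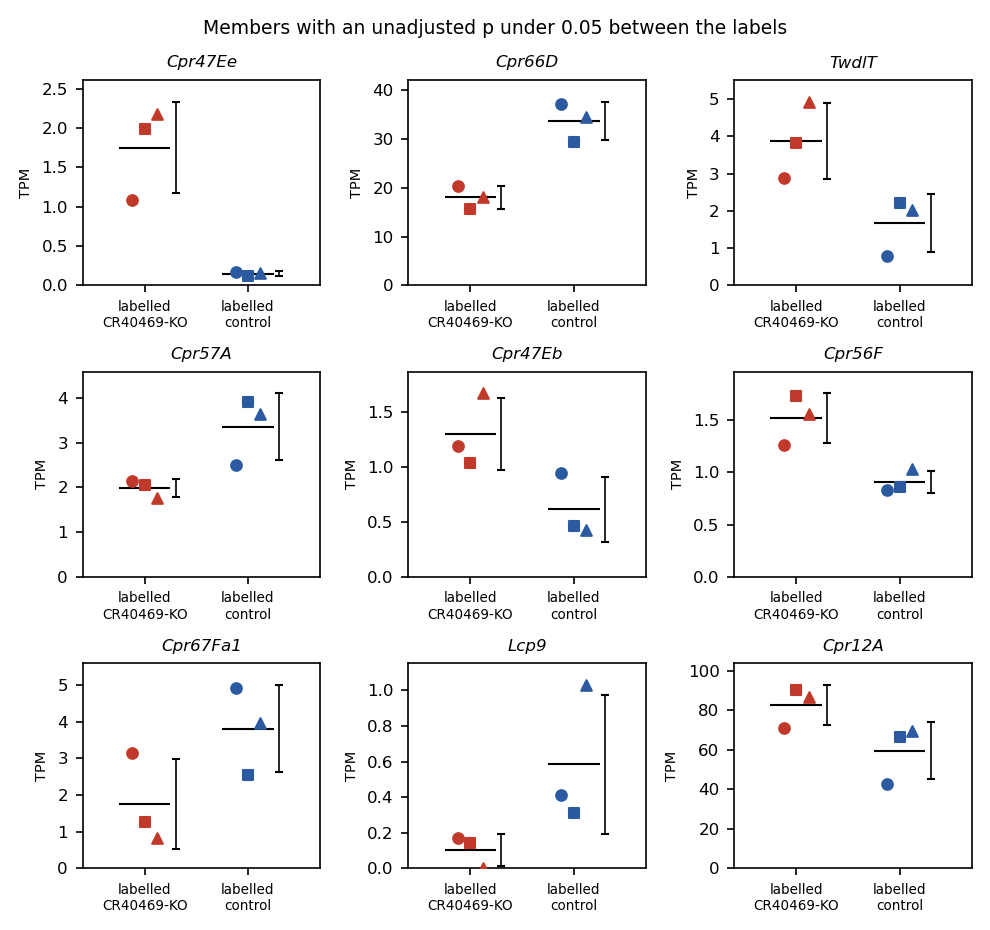
TPM (linear axes from 0) of the 9 members with an unadjusted p under 0.05, each library as a point, libraries labelled CR40469-KO left of those labelled control, with the mean as a line and the SD as an error bar (n = 3 each). None of the 9 was called, and only *Cpr67Fa1* has overlapping groups.

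Many members were set apart in the libraries numbered 1 of both labels. The labels do not say that a number stands for a shared day, culture or preparation. In 18 of the 31 members (58.1%) the library numbered 1 lay outside the other libraries of its label in the same direction under both labels, compared with 17.4% of tested genes. It was the highest for 10 members and the lowest for 8. For libraries numbered 2 this held for 9 members (29.0%), compared with 10.7% of tested genes, and for those numbered 3 for 2 members (6.45%), compared with 6.57%. *Lcp65Ag2*, *Cpr11A* and *Lcp65Ab1*, among the 10, passed the filter only through libraries numbered 1. *Cpr31A* and *Cpr78Ca*, among the 8, passed it only through libraries numbered 2 and 3. These counts too are therefore a description and not support.

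The members high in libraries numbered 1 included genes of several families. Relative to the mean of libraries 2 and 3, *Cpr64Aa* in library 1 was 4.92 times as high under the label CR40469-KO and 2.96 times under the label control. *Cpr49Ah* was 2.57 and 2.33 times as high, and *Cpr51A* 2.36 and 2.44 times, under CR40469-KO and control. Among low genes, *Twdlbeta* had 4.06, 0.35 and 0.38 TPM in libraries labelled CR40469-KO, against 3.57, 1.23 and 0.66 TPM in those labelled control. *Cpr11A* had 1.21, 0.18 and 0.15 TPM in libraries labelled CR40469-KO, against 0.98, 0.23 and 0.17 TPM in those labelled control. Both were thus near or over 1 TPM only in library 1, apart from *Twdlbeta* in control 2. The members low in library 1 under both labels included *Cpr49Ac* (0.51 and 0.77 times the mean of libraries 2 and 3 under CR40469-KO and control), *Cpr65Ec* (0.56 and 0.75 times) and *Cpr78E* (0.16 and 0.48 times).

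**Figure D4:**
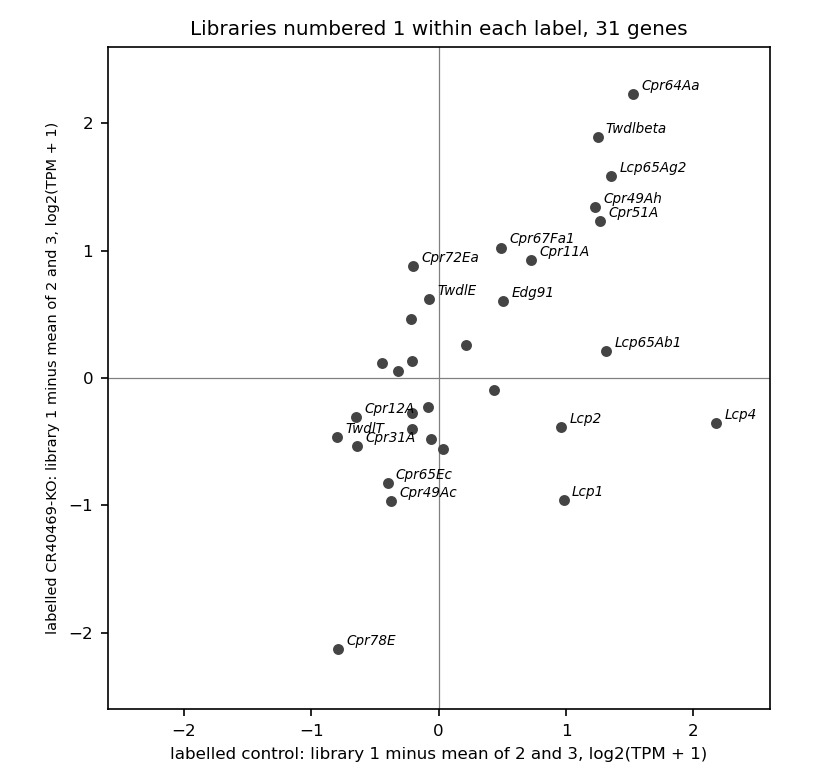
For the 31 members, log2(TPM + 1) of library 1 minus the mean of libraries 2 and 3, in libraries labelled control (horizontal axis) and labelled CR40469-KO (vertical axis). *Cpr64Aa*, *Cpr49Ah*, *Cpr51A*, *Twdlbeta* and *Lcp65Ag2* lie at the upper right, and *Lcp1* and *Lcp4* lie to the right and below 0.

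A fit with label and replicate number as terms was added after these values had been seen, so its calls are a description of a pattern already noticed. It called 15 of 8051 genes for the number (0.186%), and in all 15 both libraries numbered 1 were above the other 4. Of the 31 members 1 was called, *Cpr64Aa* (limma adjusted p = 0.0312). The call was lost with median-ratio scaling (adjusted p = 0.178), with a pseudocount of 0.1 (adjusted p = 0.0734) and without the filter. At an unadjusted p under 0.05 were 9 of the 31 members (29.0%), compared with 3.06% of tested genes, among them *Lcp65Ag2* (limma adjusted p = 0.0563), *Twdlbeta* (0.0660), *Cpr51A* (0.104), *Cpr49Ah* (0.106) and *Cpr78E* (0.276). *Lcp65Ag2* and *Cpr11A*, both among the 9, passed the filter only through libraries numbered 1.

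Of the 21 ecdysone and stage genes tested, the same fit called 2 for the number, *ftz-f1* and *chinmo*. These calls and those of *Idgf6*, *PPO1* and *PPO2* given next were lost with median-ratio scaling and without the filter, where no gene of any kind was called. *ftz-f1*, the nuclear receptor gene switched on between ecdysone pulses in prepupae, had 8.82, 1.35 and 1.41 TPM in libraries labelled CR40469-KO, against 6.22, 1.7 and 1.47 TPM in those labelled control (limma adjusted p for the number = 0.0312). *chinmo*, a gene of earlier larval identity, had 9.22, 0.39 and 0.52 TPM in libraries labelled CR40469-KO, against 3.65, 0.61 and 0.52 TPM in those labelled control (limma adjusted p for the number = 0.0286). Both were high in the libraries numbered 1, and *chinmo* passed the filter only through them. In library 1 under both labels, 2 of the 21 were highest and 9 lowest, compared with 7.94% and 9.44% of all tested genes. Among the 9, *ImpL1* passed the filter only through libraries numbered 2 and 3. The call of *chinmo* and these counts are thus a description and not support. The low ones included the ecdysone-induced disc gene *ImpE2*, with 2170.02, 3208.08 and 3215.06 TPM in libraries labelled CR40469-KO, against 1540.84, 3645.78 and 2592.60 TPM in those labelled control. None of the 21 was called between the labels and none had an unadjusted p under 0.05 (0.224% and 4.82% of all tested genes). Their median log2 fold change was 0.22. *Hr3*, an early-late ecdysone response gene, had 7.70, 35.43 and 30.37 TPM in libraries labelled CR40469-KO, against 10.51, 16.93 and 9.78 TPM in those labelled control, with overlapping groups.

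Of 23 tested genes of chitin synthesis, modification and breakdown and of other cuticle parts, 10 were highest and 1 was lowest in library 1 under both labels (7.94% and 9.44% of all tested genes). Among the 10, *obst-E* and *Idgf3* passed the filter only through libraries numbered 1. *Idgf6*, a chitinase-like growth factor gene, had 28.40, 3.55 and 3.23 TPM in libraries labelled CR40469-KO, against 19.47, 4.75 and 6.35 TPM in those labelled control (limma adjusted p for the number = 0.0261). Between the labels 0 of the 23 were called, compared with 0.224% of all tested genes. At an unadjusted p under 0.05, 2 were higher and 0 lower in libraries labelled CR40469-KO, compared with 3.03% and 1.79% of all tested genes. *Gasp*, a chitin-binding protein gene of tracheal and other cuticle, had 120.98, 73.05 and 74.78 TPM in libraries labelled CR40469-KO, against 63.38, 41.84 and 38.79 TPM in those labelled control (log2 fold change 0.88, limma adjusted p = 0.516). *verm*, a chitin deacetylase gene, had 294.80, 265.69 and 248.26 TPM in libraries labelled CR40469-KO, against 222.64, 218.98 and 188.42 TPM in those labelled control (log2 fold change 0.36, limma adjusted p = 0.818). The median log2 fold change of the 23 was 0.12, close to the 0.13 of all tested genes.

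Markers of other cells also differed between libraries, and their part in the cuticle gene values was not tested. Of 10 haemocyte genes 7 were tested, and 3 were highest in library 1 under both labels, as were 7.94% of all tested genes. *PPO1*, a crystal cell gene, had 4.69, 0.06 and 1.41 TPM in libraries labelled CR40469-KO, against 4.33, 0.16 and 1.55 TPM in those labelled control (limma adjusted p for the number = 0.01), and *PPO2* was called in the same way. The sum of the haemocyte list was 9.37 to 49.0 TPM in libraries labelled CR40469-KO and 11.3 to 28.4 TPM in those labelled control. Of 8 muscle genes 5 were highest in library 1 under both labels, compared with the same 7.94%, among them *Mhc* with 1.07, 0.08 and 0.09 TPM in libraries labelled CR40469-KO, against 1.71, 0.04 and 0.16 TPM in those labelled control. *Mhc* passed the filter only through libraries numbered 1. The muscle list summed to 462 to 571 TPM in libraries labelled CR40469-KO and 442 to 523 TPM in those labelled control. Most of each sum was *Tm1*, with 518.67, 450.88 and 413.76 TPM in libraries labelled CR40469-KO, against 374.24, 490.99 and 403.36 TPM in those labelled control. *Tm1*, *Act57B* and *sls* were not highest in library 1 under both labels. Trachea, an epidermis with cuticle of its own that is attached to the wing disc, had all 7 of its measured genes on, with sums of 829 to 1020 TPM in libraries labelled CR40469-KO and 638 to 822 TPM in those labelled control. The trachea list thus separated the labels, by the gap between 829.06 and 821.96 TPM. That list shares *Gasp*, *serp* and *verm* with the chitin genes. Fat body genes summed to 10.47 to 14.96 TPM in libraries labelled CR40469-KO and 15.52 to 34.45 TPM in those labelled control, so this list also separated the labels, in the other direction. Of its 7 tested genes 0 were called, compared with 0.224% of all tested genes. At an unadjusted p under 0.05, 3 were lower and 0 higher in libraries labelled CR40469-KO, compared with 1.79% and 3.03% of all tested genes. The median log2 fold change was -0.74. *Fbp1*, *Fbp2* and *Lsp2* passed the filter only through libraries labelled control, so these values are a description and not support. The fat body gene *Fbp2* had 0.52, 0.88 and 0.95 TPM in libraries labelled CR40469-KO, against 3.02, 2.96 and 2.06 TPM in those labelled control (log2 fold change -1.04, limma adjusted p = 0.0747). Of the leg disc genes listed, *Dll*, *dac* and *Antp* are also expressed in the wing disc, and *Scr*, a homeotic gene of the prothorax, did not exceed 0.36 TPM in any library. The salivary gland genes reached at most 4.46 TPM in sum, with *Sgs1*, *ng1* and *ng2* listed at 0.

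**Figure D5:**
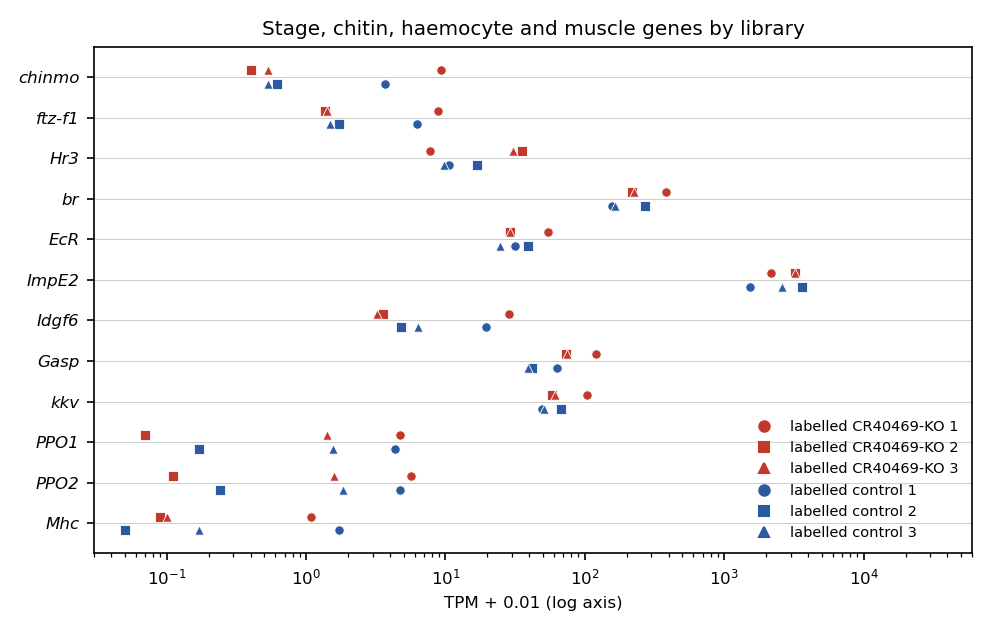
TPM + 0.01 on a log axis of 12 genes of stage, chitin, haemocytes and muscle, libraries labelled CR40469-KO in red above those labelled control in blue, with the replicate number as the symbol's shape. Circles (libraries numbered 1) lie to the right of the other shapes under both labels for *chinmo*, *ftz-f1*, *Idgf6*, *Gasp*, *PPO1*, *PPO2* and *Mhc*, and to the left for *ImpE2*.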

How the data were processed

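RNA-seq of wing discs was analysed from 3 libraries labelled CR40469-KO and 3 labelled control. The deposited files hold TPM that the authors obtained with RSEM (1.2.21) after alignment to dm6 with STAR (2.4.0j), as the submitters' processing notes name them, to 2 decimals and without counts. Each library sums to 1000000, so depth is not kept. Symbols were found for 16402 identifiers and not for 53. Positions are from the Ensembl release 115 annotation on dm6. *Lcp1Psi*, *Lcp65APsi* and *TwdlU* were not analysed here. Members and gene lists were chosen with earlier results of these data known.

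Genes that reached 1 TPM in any library were compared on log2(TPM + 1) with limma 3.58.1 (lmFit and eBayes, two-sided) in R 4.3.3, with Benjamini-Hochberg adjustment over all 8051 tested genes. The planned count test was not applicable to TPM. The fit was tested on simulated data. Members on in any library were named. Per-library values were given for the 15 most abundant, those separating the labels or with an unadjusted p under 0.05, and, chosen after their values were seen, *Twdlbeta*, *Cpr11A* and the Lcp genes. Alternatives were another pseudocount, filters, scaling, a mean-variance trend, a replicate block, each library left out and other thresholds of detection. Figures were drawn with matplotlib 3.10.9.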

Additional observations from a re-analysis of the deposited data

How the results depend on the processing

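The 9 named fold changes kept their direction in all 106 values under 12 settings, and 102 also kept their side of the threshold, the other 4 being those of *Cpr47Ee*. Calls among members were 0, and 1 (*Cpr47Ee*) with a pseudocount of 0.1, with the filter at 3 libraries and with the replicate number as a block, and 0 to 1 with each library left out. Calls over all tested genes numbered 18, and 11 without the filter, 31 with the block, and 6 (without control 1) to 35 (without CR40469-KO 1) with each library left out, 11 without CR40469-KO 3 and 9 without control 3. Members with an unadjusted p under 0.05 numbered 4 (without CR40469-KO 3) to 11. Deviations from the label mean of libraries with the same number correlated at -0.03, -0.35 and 0.16 over all tested genes for numbers 1, 2 and 3, and at 0.56, 0.70 and 0.03 over the 31 members. Between unlike numbers the correlations ranged from -0.39 to 0.47 over all tested genes and from -0.75 to 0.52 over the members. In neither set were all 3 values of like numbers above 0.1, a limit that was not planned, so the numbers were not taken to pair the libraries. The summed TPM without *Cpr49Ac* averaged 511 in libraries labelled CR40469-KO and 483 in those labelled control. With *Cpr49Ac* and median-ratio scaling it averaged 918 in libraries labelled CR40469-KO and 952 in those labelled control, the reverse of the order as deposited (955 and 909). Groups did not overlap for 6 members with that scaling, against 8 as deposited. For the fit on replicate number, added after seeing the data, the calls over all genes were 15, and 28 with a pseudocount of 0.1, 0 without the filter (420 at an unadjusted p under 0.05), 0 with median-ratio scaling (252) and 31 (without CR40469-KO 3) to 376 (without control 1) with each library left out. Among members that fit made 1 call, and 2 with a pseudocount of 0.1, 0 without the filter, 0 with median-ratio scaling, 4 with a mean-variance trend and 2 to 8 with each library left out. Depth limits could not be given from TPM, and a lone low value cannot be told from few reads. The cause of these differences between settings was not tested.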

Other observations

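Among the 49 members that stayed under 1 TPM but above 0, 20 had their highest value in a library numbered 1. The share over all genes of this range was not computed for this count or the next, so neither is read as a pattern. Control 1 was the only library with a value above 0 for 5 members, *Cpr65Aw* (0.64 TPM), *Lcp65Ae* (0.29 TPM), *Cpr60D* (0.18 TPM), *TwdlN* (0.03 TPM) and *Cpr78Cb* (0.02 TPM). Summed over the 17 genes of the Lcp65A group on 3L, the values were 3.59, 0.23 and 0.62 TPM in libraries labelled CR40469-KO, against 5.64, 0.60 and 1.28 TPM in those labelled control, so the libraries numbered 1 were highest under both labels. The 7 Ccp84A genes summed to 0.32, 0.40 and 0.68 TPM in libraries labelled CR40469-KO, against 0.27, 0.44 and 0.38 TPM in those labelled control, with no such order.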
